A study of Homo sapiens with 18 samples.

Results

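Oxidative phosphorylation genes of the nucleus were followed across 18 polyA RNA libraries of PC9, a human lung adenocarcinoma line with an activating mutation of EGFR, the receptor kinase it needs to grow. Genes were chosen by a name rule, set with earlier results of these data known. It took the symbol prefixes of complex I (NDUFA to NDUFV), complex II (SDHA to SDHD), complex III (UQCR) and complex V (ATP5). Of complex IV it took COX4 to COX8 followed by A, B or C, which leaves out COX4I1. At least 1000 reads over the libraries were needed, and pseudogenes and assembly factors were left out. The rule found 81 of 30727 gene entries. Of these, 78 encode a subunit, a paralog or a regulator and are described here: 36 of complex I, 4 of complex II, 8 of complex III, 12 of complex IV and 18 of complex V. The other 3 are the antisense RNA NDUFB2-AS1 and the read-through genes NDUFC2-KCTD14 and ATP5MF-PTCD1. NDUFB2-AS1, with 1091.6 reads, stood just inside the minimum and NDUFA6-DT, with 588.5, just outside it. The muscle or testis isoform genes COX6A2, COX7A1 and COX8C also fell short, with 1.1, 30.2 and 11.9 reads. All 78 passed the filter on low counts.

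The 6 groups of 3 libraries (replicates a, b and c) all came from PC9 in medium with 10% serum. DTP_TSA cells were drug-tolerant persisters given 50 nM trichostatin A (TSA), a histone deacetylase inhibitor, for 5 hours. DTP cells were the persisters themselves, alive after 8 days in 1 µM erlotinib, an EGFR inhibitor. Erlotinib_24h cells had 1 µM erlotinib for 24 hours, and carboplatin_72h cells had 50 µM carboplatin, a DNA-crosslinking drug renewed daily, for 72 hours. Parental_TSA cells had 50 nM TSA for 5 hours, and parental_DMSO cells had the solvent. The DTP labels also mention cells sorted for ALDH activity, which no sample title names. Whether replicates a, b and c were grown apart is not stated, so the p-values cover the spread among these libraries alone, which may be technical. In bulk RNA, fewer cells of a kind and less RNA per cell cannot be told apart.

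Complexes I to IV form the respiratory chain of the inner mitochondrial membrane: electrons from NADH enter at complex I, those from succinate at complex II, and both pass through complex III to complex IV, which reduces oxygen. The proton gradient made on the way drives complex V, the ATP synthase. The catalytic cores of complexes I, III and IV and part of complex V are encoded by the mitochondrial genome, all of complex II and most other subunits by the nucleus, so that assembly draws on both genomes.

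Gene reads ran from 32139343 to 128293531 per library. DTP_TSA a stood apart, with 99.9 reads of the added ERCC spike-in RNA per 100 gene reads, against 0.321 to 0.786 in the other 17 libraries. Parental_TSA a stood apart in the oxidative phosphorylation genes themselves: their median lay 0.46 above the group mean (log2), against -0.11 in b and -0.34 in c, while every other library lay between -0.06 and 0.06. Changes with TSA are therefore given with all libraries and without both replicates a. All 6 epithelial markers were detected in every group. Their summed level was 3680 to 3730 CPM (gene reads scaled to a common library size, with TMM factors) in DTP and 7460 to 7640 CPM in erlotinib_24h, against 4040 to 4170 CPM in parental_DMSO. The sum hides opposite moves. At 24 hours EPCAM was lower (mean 312.5 against 696.3 CPM), while KRT8 (3202 against 1355 CPM), KRT18, KRT19, CDH1 and CLDN4 were higher. In DTP the means of EPCAM, KRT8 and KRT18 were lower than in parental_DMSO, and those of KRT19, CDH1 and CLDN4 higher. Of 6 fibroblast markers, COL1A1 made nearly all of the sum, which was 24.2 to 28.2 CPM in DTP and 4.62 to 4.75 CPM in parental_DMSO, where COL3A1, DCN and LUM were at 0. Endothelial markers summed to 35.2 to 36.0 CPM in DTP and 113 to 118 CPM in erlotinib_24h, against 17.5 to 18.4 CPM in parental_DMSO. Immune markers summed to 29.0 to 29.9 CPM in DTP and 70.3 to 74.2 CPM in carboplatin_72h, against 30.2 to 32.9 CPM in parental_DMSO. PECAM1 made most of the endothelial sum in erlotinib_24h and CD68 most of the immune sum in carboplatin_72h. Markers of striated muscle, a tissue with its own complex IV isoforms, summed to at most 1.32 CPM in any library. The part of these markers in the results below was not tested.

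Persisters carried lower levels of these genes than parental cells, and no member rose past the threshold with all libraries. Summed over the 78 genes, the level was 6920, 6698 and 6859 CPM in DTP, against 8857, 8705 and 8489 CPM in parental_DMSO, with no overlap. In the quasi-likelihood test of edgeR, with p adjusted over all 17641 genes tested and a threshold of 0.05, 0 members rose and 38 fell in DTP, where 31% of all genes rose and 27.8% fell (58.9% in either direction). The median log2 change of the members was -0.29, against 0.06 for all genes. Left-out libraries gave 30 to 55 lower members, and 0 higher except without parental_TSA a, where 3 were higher.

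At 24 hours of erlotinib the sum was also below the parental range, at 7130, 6988 and 6932 CPM, but the members were less uniform. There 5 members rose and 33 fell, where 36.6% of all genes rose and 32.7% fell (69.3% in either direction), and the median was -0.23, against 0.11 for all genes. The count of 5 higher rests on few libraries: it was 2 without parental_DMSO a, parental_DMSO b, erlotinib_24h a or erlotinib_24h b, 3 without parental_DMSO c, erlotinib_24h c, DTP_TSA c or any 1 DTP or carboplatin_72h library, and 12 without parental_TSA a. Single members ran from -1.47 to 0.61 at 24 hours, with a standard deviation over the 78 genes of 0.42, and from -0.85 to 0.21 in DTP, with one of 0.25. Compared directly, DTP against erlotinib_24h, 8 members rose and 13 fell, where 30.5% of all genes rose and 24.8% fell (55.3% in either direction), and the medians were -0.05 for the members and 0.03 for all genes. Without parental_TSA a these counts were 16 and 24.

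**Figure D1:**
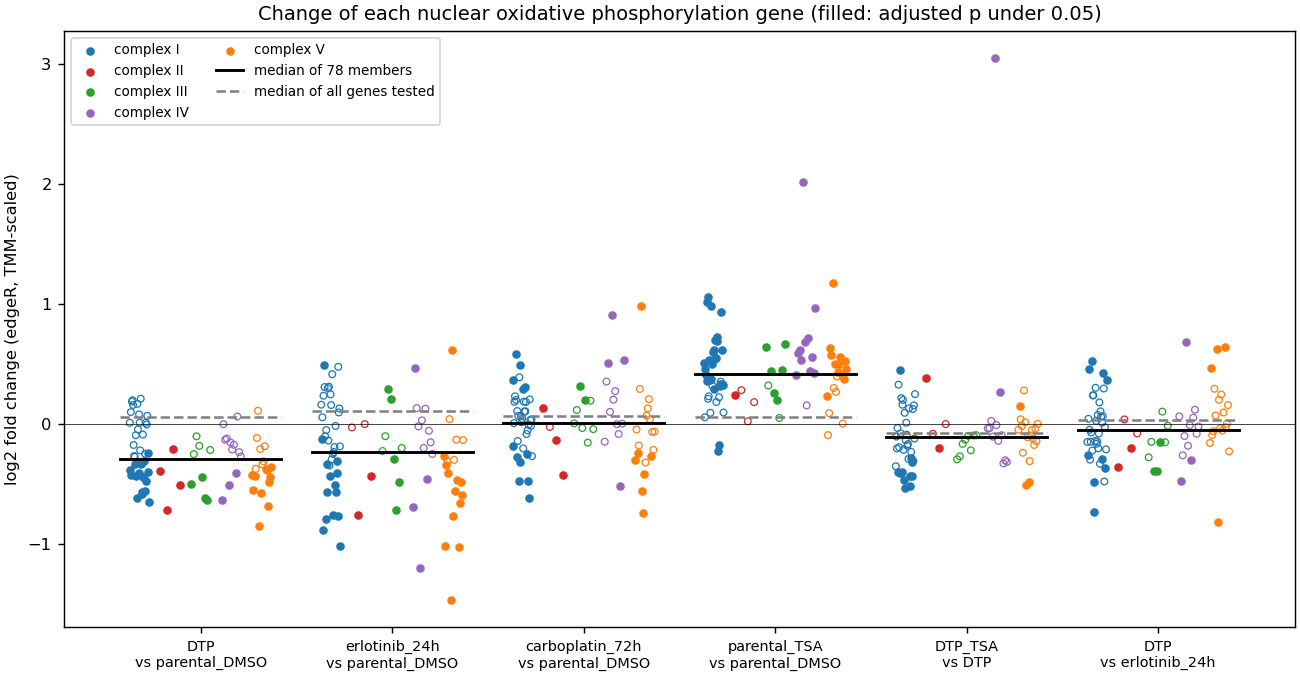
Log2 fold change of each of the 78 genes (y axis) in 6 comparisons (x axis), coloured by complex; filled points passed the adjusted p threshold, solid bars mark the median of the 78 genes and dashed bars that of all genes tested. The DTP and erlotinib_24h medians of -0.29 and -0.23 lie below those of all genes, and the parental_TSA median of 0.42 lies above.

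Carboplatin left the sum near the parental one, at 8593, 8502 and 8666 CPM, with a range that overlaps that of parental_DMSO. Here 12 members rose and 16 fell, where 30.3% of all genes rose and 28.6% fell (58.9% in either direction), with medians of 0.01 and 0.06. The members higher numbered 5 without parental_DMSO a, 7 without parental_DMSO b, parental_DMSO c, carboplatin_72h b or carboplatin_72h c, and 21 without parental_TSA a. All comparisons with parental_DMSO share its 3 libraries, so their values are set side by side only.

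These changes are relative to total gene RNA. With the spike-in RNA, added by cell number, as the library size and DTP_TSA a left out, the median of all genes moved to 0.16 in DTP, -0.23 in erlotinib_24h and 0.72 in carboplatin_72h. On that scale 2 members rose and 23 fell in DTP (median -0.20), where 31.1% of all genes rose and 17.8% fell. At 24 hours 0 rose and 60 fell (-0.59), where 25.8% of all genes rose and 39.8% fell. After carboplatin 70 rose and 0 fell (0.65), where 58.7% rose and 6.7% fell. DTP against erlotinib_24h then gave 51 higher and 1 lower (0.40), where all genes had a median of 0.48 and 47% of them rose and 11.2% fell. The members called in DTP and at 24 hours were thus mostly lower on both scales, while the members lower after carboplatin did so only relative to total gene RNA. Without replicate a of both TSA groups, which left a smaller shared spread, 3 members rose and 59 fell in DTP (38.7% and 34.7% of all genes), and 16 rose and 49 fell at 24 hours (42.9% and 37.4%).

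Promoter sequence was not used by the name rule, and is described here over the members. RefSeq promoter sequences (GRCh38.p14, 250 bases before to 50 after the start) were matched for 66 of the 78 genes. Both strands were searched for GCGC and TGCGC 1 base (N) apart, the core of the site of NRF1, for CCGGAAG, the core of ETS factors such as GABPA, for AANATGGC, the core of YY1, and for TCAAGGTCA, the site of estrogen-related receptors (ERR). NRF1, GABPA, YY1 and the ERRs are known activators of respiratory chain genes. The NRF1 letters occurred in 24.2% of the members' promoters, against 6.28% of all 27305 promoters and 10.5% of those of genes tested here. The ETS letters occurred in 28.8%, against 10.7% and 17.2%. The YY1 letters occurred in 33.3%, against 6.82% and 9.0%, and the ERR letters in only 1 promoter, that of SDHD (1.52%), against 0.359% and 0.221%. In all, 41 of the 66 held at least 1 match, and in none did matches of different motifs overlap. Median GC content was 61.0%, against 64.3% for tested genes, so the members were not the more GC-rich. Chromosome 19 held 11 of the 78 genes (14.1%), against 7.22% of protein-coding genes. A match is a description of letters, not a site in use, and its absence from this window says nothing about the factor.

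Promoters are shown for pairs whose RNA moved differently below, the ATP synthase subunit c genes ATP5MC1 and ATP5MC2 and the complex IV genes COX6B1 and COX6B2, and for SDHB and UQCRFS1, which fell in both erlotinib groups and hold more than 1 motif; capitals mark the matches. ATP5MC1 lies at chr17:48892537-48892836 (plus strand), ATP5MC2 at chr12:53676034-53676333 (minus), COX6B1 at chr19:35648073-35648372 (plus), COX6B2 at chr19:55354670-55354969 (minus), SDHB at chr1:17053983-17054282 (minus) and UQCRFS1 at chr19:29213102-29213401 (minus).
ATP5MC1: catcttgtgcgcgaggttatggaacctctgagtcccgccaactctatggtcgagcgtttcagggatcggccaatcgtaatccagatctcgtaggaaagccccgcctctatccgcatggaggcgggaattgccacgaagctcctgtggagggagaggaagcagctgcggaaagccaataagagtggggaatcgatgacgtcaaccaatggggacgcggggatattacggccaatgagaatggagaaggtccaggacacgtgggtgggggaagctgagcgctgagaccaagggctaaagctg
ATP5MC2: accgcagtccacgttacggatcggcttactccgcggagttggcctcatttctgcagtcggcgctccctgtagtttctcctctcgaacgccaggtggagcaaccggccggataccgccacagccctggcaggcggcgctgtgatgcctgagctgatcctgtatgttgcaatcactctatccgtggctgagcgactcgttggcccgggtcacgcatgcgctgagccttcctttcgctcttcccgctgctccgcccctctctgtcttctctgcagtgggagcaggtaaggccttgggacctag
COX6B1: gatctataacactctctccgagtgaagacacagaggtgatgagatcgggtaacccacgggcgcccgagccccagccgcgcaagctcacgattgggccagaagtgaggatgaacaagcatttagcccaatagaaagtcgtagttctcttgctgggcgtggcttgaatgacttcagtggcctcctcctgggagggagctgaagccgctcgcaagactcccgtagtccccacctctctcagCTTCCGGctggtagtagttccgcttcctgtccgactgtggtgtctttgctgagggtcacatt
COX6B2: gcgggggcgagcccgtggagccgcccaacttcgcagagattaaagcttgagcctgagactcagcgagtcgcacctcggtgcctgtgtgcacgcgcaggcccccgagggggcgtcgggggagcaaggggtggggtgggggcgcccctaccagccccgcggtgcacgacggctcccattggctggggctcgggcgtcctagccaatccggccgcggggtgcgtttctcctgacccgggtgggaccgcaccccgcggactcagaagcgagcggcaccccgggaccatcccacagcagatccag
SDHB: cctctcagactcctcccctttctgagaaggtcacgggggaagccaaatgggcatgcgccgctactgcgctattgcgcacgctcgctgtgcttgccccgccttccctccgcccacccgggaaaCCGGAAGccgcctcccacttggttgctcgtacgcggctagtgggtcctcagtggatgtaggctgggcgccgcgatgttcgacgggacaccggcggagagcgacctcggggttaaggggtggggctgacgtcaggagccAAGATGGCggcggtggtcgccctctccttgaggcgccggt
UQCRFS1: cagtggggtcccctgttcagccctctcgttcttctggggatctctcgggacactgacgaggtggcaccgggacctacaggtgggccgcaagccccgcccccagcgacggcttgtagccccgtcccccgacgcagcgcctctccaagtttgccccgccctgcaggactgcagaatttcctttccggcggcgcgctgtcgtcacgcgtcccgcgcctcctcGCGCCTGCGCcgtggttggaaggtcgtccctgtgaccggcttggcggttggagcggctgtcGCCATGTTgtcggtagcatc
SDHB holds an ETS and a YY1 match, UQCRFS1 an NRF1 and a YY1 match and COX6B1 an ETS match, while the windows of ATP5MC1, ATP5MC2 and COX6B2 hold none. The ATP5MC2 gene is annotated from 53665170 to 53681423, so its window lies at a start inside the gene. The outer end of ATP5MC2 was not searched. The COX6B2 window is the most GC-rich of the 6, at 72.0%, against 56.7% for COX6B1.

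Complex I, the NADH dehydrogenase, had 16 of 36 genes lower and 0 higher in DTP, with a median of -0.25. The largest fall was that of NDUFV3, an accessory subunit of the NADH-binding module. Its level was 16.2, 15.6 and 15.6 CPM in DTP and 12.9, 12.3 and 11.7 CPM in erlotinib_24h, against 25.3, 25.2 and 24.3 CPM in parental_DMSO. No library of either erlotinib group reached the parental range. NDUFV3 fell by 0.66 ± 0.14 in DTP (log2 ± SE, adjusted p = 0.000829, edgeR) and by 1.02 ± 0.15 at 24 hours (adjusted p = 7.98e-06), and on the spike-in scale by 0.57 and 1.38.

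NDUFA2, an accessory subunit with a thioredoxin-like fold, moved the other way. It stood at 41.0, 39.4 and 38.8 CPM in erlotinib_24h and 42.8, 39.4 and 44.6 CPM in carboplatin_72h, against 29.1, 26.8 and 28.7 CPM in parental_DMSO. Neither treated group overlapped parental_DMSO. NDUFA2 rose by 0.50 ± 0.15 at 24 hours (adjusted p = 0.00789) and 0.58 ± 0.15 after carboplatin (adjusted p = 0.00326). With spike-in library sizes the change at 24 hours was 0.14 and did not pass (adjusted p = 0.307), while that after carboplatin was 1.23. NDUFA9, a subunit near the ubiquinone site, was at 84.8, 86.3 and 84.8 CPM after carboplatin, against 121, 119 and 116 CPM in parental_DMSO, a fall of 0.48 ± 0.10 (adjusted p = 0.000527) that turned to 0.17 higher on the spike-in scale. NDUFS6, a zinc-binding subunit, fell by 0.62 ± 0.15 after carboplatin (adjusted p = 0.0023), against 0.02 higher with spike-ins.

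Complex II, succinate dehydrogenase, which also works in the citric acid cycle, had all 4 genes lower in DTP, with a median of -0.45. SDHB, the iron-sulfur subunit, was at 61.2, 57.7 and 59.8 CPM in DTP and 59.5, 57.7 and 57.0 CPM in erlotinib_24h, against 98.2, 101 and 95.4 CPM in parental_DMSO. SDHD, a membrane anchor, was at 92.3, 86.6 and 89.0 CPM in DTP and 96.9, 92.1 and 94.1 CPM in erlotinib_24h, against 128, 134 and 121 CPM in parental_DMSO. Both were low in every erlotinib library, and SDHB fell by 0.72 ± 0.13 in DTP (adjusted p = 0.000111), SDHD by 0.51 ± 0.08 (adjusted p = 3.12e-05).

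SDHA, the flavoprotein that oxidises succinate, and SDHC, the other anchor, were lower in DTP but not at 24 hours. SDHA had 174, 174 and 173 CPM in DTP, 221, 226 and 222 CPM in erlotinib_24h and 230, 228 and 225 CPM in parental_DMSO. It fell by 0.39 ± 0.04 in DTP against parental_DMSO (adjusted p = 7.39e-07) and by 0.36 ± 0.04 against erlotinib_24h (adjusted p = 2.14e-06). SDHC had 114, 114 and 113 CPM in DTP, 134, 126 and 132 CPM in erlotinib_24h and 130, 133 and 130 CPM in parental_DMSO, and fell by 0.21 ± 0.05 in both DTP comparisons (adjusted p = 0.00202 against parental_DMSO and 0.00237 against erlotinib_24h). This difference between the subunits' time courses depends on the scale. With spike-in library sizes SDHA and SDHC fell at 24 hours (-0.39 and -0.36, adjusted p = 0.0283 and 0.037), did not pass in DTP (adjusted p = 0.108 and 0.54), and were 0.09 and 0.25 higher in DTP than at 24 hours. After TSA, SDHA rose in both backgrounds, to 219, 232 and 229 CPM in DTP_TSA, and to 274, 269 and 266 CPM in parental_TSA. The changes were 0.38 ± 0.04 in DTP_TSA against DTP (adjusted p = 1.12e-06) and 0.24 ± 0.04 in parental_TSA against parental_DMSO (adjusted p = 0.000136). They were 0.40 and 0.23 without both replicates a. With spike-in library sizes they were 0.55 and 0.25, and the change in parental_TSA did not pass (adjusted p = 0.181).

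Complex III, the cytochrome bc1 complex, had 4 of 8 genes lower and 0 higher in DTP, with a median of -0.35. UQCRFS1, the Rieske iron-sulfur protein, was at 90.6, 90.7 and 94.2 CPM in DTP and 85.6, 84.9 and 86.3 CPM in erlotinib_24h, against 142, 145 and 137 CPM in parental_DMSO. It fell by 0.62 ± 0.11 in DTP (adjusted p = 9.77e-05) and by 0.72 ± 0.11 at 24 hours (adjusted p = 1.42e-05), while in carboplatin_72h it was at 125, 128 and 127 CPM and did not pass (adjusted p = 0.225). UQCRB, a ubiquinone-binding subunit, and UQCRC1, a core protein, were 0.29 and 0.21 higher at 24 hours (adjusted p = 0.0424 and 0.0429), but -0.07 and -0.15 on the spike-in scale, and each call was lost when any 1 of 14 of the 18 libraries was left out. Without parental_DMSO a, b and c in turn the adjusted p was 0.0603, 0.0619 and 0.161 for UQCRB and 0.0958, 0.103 and 0.0807 for UQCRC1.

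Complex IV, cytochrome c oxidase, had 3 of 12 genes lower in DTP, with a median of -0.19. With all libraries this was the fewest for its size of the 5 complexes. Without replicate a of both TSA groups complex I had the fewest for its size, at 22 of 36, while complex IV had 10 of 12. Its clearest member was COX6B2, the testis form of the subunit that bridges the intermembrane-space side of the enzyme, known as a cancer-testis antigen. COX6B2 was at 14.8, 14.3 and 13.5 CPM in DTP_TSA, against 1.48, 1.80 and 1.85 CPM in DTP. It was at 9.24, 9.98 and 10.4 CPM in parental_TSA, against 2.48, 2.29 and 2.54 CPM in parental_DMSO. In neither background did the TSA libraries come near the untreated ones. COX6B2 rose by 3.05 ± 0.12 in DTP_TSA (log2 ± SE, adjusted p = 3.81e-12) and by 2.02 ± 0.11 in parental_TSA (adjusted p = 2.38e-10), and the rise was 1.03 ± 0.16 larger in DTP (adjusted p = 8.31e-05). Without both replicates a the rises were 3.01 and 2.06 and the difference 0.95 (adjusted p = 2.39e-05). The level in parental_TSA a was the lowest of its group for COX6B2 and NDUFS1, and for no other member.

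COX6B2 was also low in cells given erlotinib and high after carboplatin. It was at 0.986, 1.08 and 1.11 CPM in erlotinib_24h and 4.73, 4.09 and 4.93 CPM in carboplatin_72h. Against parental_DMSO it fell by 1.20 ± 0.12 at 24 hours (adjusted p = 1.06e-07) and by 0.51 ± 0.12 in DTP (adjusted p = 0.00107), and rose by 0.91 ± 0.11 after carboplatin (adjusted p = 2.58e-06). On the spike-in scale the change in DTP was -0.42 and did not pass (adjusted p = 0.0791), while those at 24 hours (-1.56) and after carboplatin (1.55) did.

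COX6B1, the form found in most tissues, rose with TSA in parental cells, by 0.53 (adjusted p = 0.00461; 0.23 without both replicates a), but not past the threshold in DTP (-0.11, adjusted p = 0.552). It was at 98.9, 110 and 104 CPM in DTP_TSA, against 118, 111 and 108 CPM in DTP, and at 244, 156 and 131 CPM in parental_TSA, against 122, 120 and 125 CPM in parental_DMSO. Of the reads of both COX6B genes, COX6B2 took 12.0% ± 0.881 in DTP_TSA (SD, n = 3 here and below), 1.5% ± 0.239 in DTP, 0.874% ± 0.0901 in erlotinib_24h, 3.38% ± 0.358 in carboplatin_72h, 5.66% ± 1.85 in parental_TSA and 1.95% ± 0.0674 in parental_DMSO. COX6B1 thus kept most reads in every group.

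**Figure D2:**
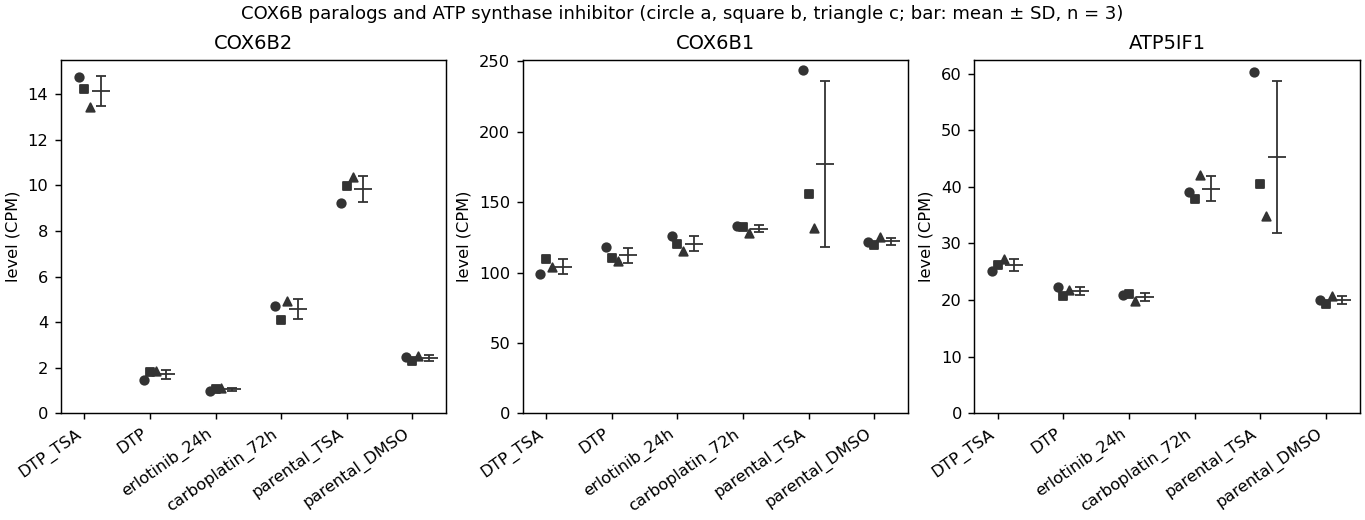
Level in CPM (y axis) of COX6B2, COX6B1 and the ATP synthase inhibitor ATP5IF1 in every library of the 6 groups (x axis); symbols are replicates and bars the mean ± SD of 3. COX6B2 lies between 13.5 and 14.8 CPM in DTP_TSA and below 1.9 CPM in DTP, and parental_TSA a lies above its mates for COX6B1 and ATP5IF1 but not for COX6B2.

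Among other complex IV genes, COX5B, a zinc-binding subunit, was at 133, 134 and 130 CPM in erlotinib_24h, against 96.5, 90.6 and 99.2 CPM in parental_DMSO, a rise of 0.47 ± 0.17 (adjusted p = 0.0223) that was 0.11 on the spike-in scale (adjusted p = 0.405). The call on COX5B was also lost without parental_DMSO a, parental_DMSO b, erlotinib_24h a or erlotinib_24h b, at adjusted p = 0.0507, 0.0706, 0.0512 and 0.0525. COX5A, its partner in the matrix domain, fell by 0.63 ± 0.13 in DTP (adjusted p = 0.000519) and by 0.69 ± 0.13 at 24 hours (adjusted p = 0.000168). COX7B2, a paralog of COX7B, was at 13.3, 14.3 and 14.9 CPM in carboplatin_72h, below the 21.3, 19.6 and 19.8 CPM of parental_DMSO. It fell by 0.52 ± 0.14 (adjusted p = 0.00475; 0.14 higher with spike-ins), and its share of the reads of both COX7B genes was 11.5% ± 0.754 in carboplatin_72h, against 14.9% ± 0.518 in parental_DMSO.

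Complex V, the ATP synthase, had 11 of 18 genes lower and 0 higher in DTP (median -0.38) and 12 of 18, with 1 higher, at 24 hours (median -0.44). Its catalytic subunit ATP5F1B was at 493, 481 and 479 CPM in DTP and 358, 347 and 348 CPM in erlotinib_24h, against 723, 720 and 685 CPM in parental_DMSO. The 3 groups were fully apart. ATP5F1B fell by 0.55 ± 0.06 in DTP (adjusted p = 3.14e-07) and by 1.02 ± 0.06 at 24 hours (adjusted p = 6.61e-11), and in DTP it was 0.47 ± 0.06 above erlotinib_24h (adjusted p = 2.59e-06). ATP5MK, a small subunit of the membrane part, followed the same order, with 45.1, 42.3 and 43.5 CPM in DTP and 28.2, 28.9 and 26.8 CPM in erlotinib_24h, against 60.9, 56.5 and 53.3 CPM in parental_DMSO.

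The ring of subunit c, through which protons pass, is encoded by 3 genes that give the same mature protein with different import sequences, and these diverged. ATP5MC1 was at 45.8, 41.3 and 43.0 CPM in DTP, 29.3, 28.7 and 26.6 CPM in erlotinib_24h and 53.1, 54.4 and 51.6 CPM in carboplatin_72h, against 82.6, 76.3 and 76.0 CPM in parental_DMSO. It was lowest at 24 hours in every replicate, and fell by 1.47 ± 0.17 there (adjusted p = 5.21e-07) and by 0.85 ± 0.16 in DTP (adjusted p = 0.000261). ATP5MC2 was at 63.6, 65.0 and 63.2 CPM in DTP, 117, 113 and 109 CPM in erlotinib_24h and 44.0, 43.0 and 45.6 CPM in carboplatin_72h, against 75.6, 73.7 and 72.7 CPM in parental_DMSO. ATP5MC2 thus rose at 24 hours, by 0.61 ± 0.16 (adjusted p = 0.00275; 0.25 with spike-ins, adjusted p = 0.0693), and was 0.82 ± 0.16 lower in DTP than at 24 hours (adjusted p = 0.000338; -0.37 with spike-ins, adjusted p = 0.0125). ATP5MC3 was at 342, 331 and 343 CPM in DTP and 303, 292 and 289 CPM in erlotinib_24h, against 516, 508 and 486 CPM in parental_DMSO, and fell in both.

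Shares within the 3 genes do not depend on the library size. ATP5MC2 took 14.4% ± 0.465 of their reads in DTP, 25.9% ± 0.25 in erlotinib_24h and 9.34% ± 0.254 in carboplatin_72h, against 11.3% ± 0.147 in parental_DMSO. ATP5MC1 took 9.73% ± 0.371 in DTP, 6.47% ± 0.182 in erlotinib_24h and 11.2% ± 0.308 in carboplatin_72h, against 11.9% ± 0.322 in parental_DMSO. The ATP5MC2 share at 24 hours stood apart from every other library. After carboplatin all 3 genes fell (by 0.56, 0.74 and 0.42 for ATP5MC1, ATP5MC2 and ATP5MC3, adjusted p = 0.00729, 0.000831 and 0.00973), but with spike-in library sizes the changes were 0.09, -0.10 and 0.23 and none passed. Reads that match several near-identical copies were divided by the authors' counting, so small shifts between such genes are uncertain.

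**Figure D3:**
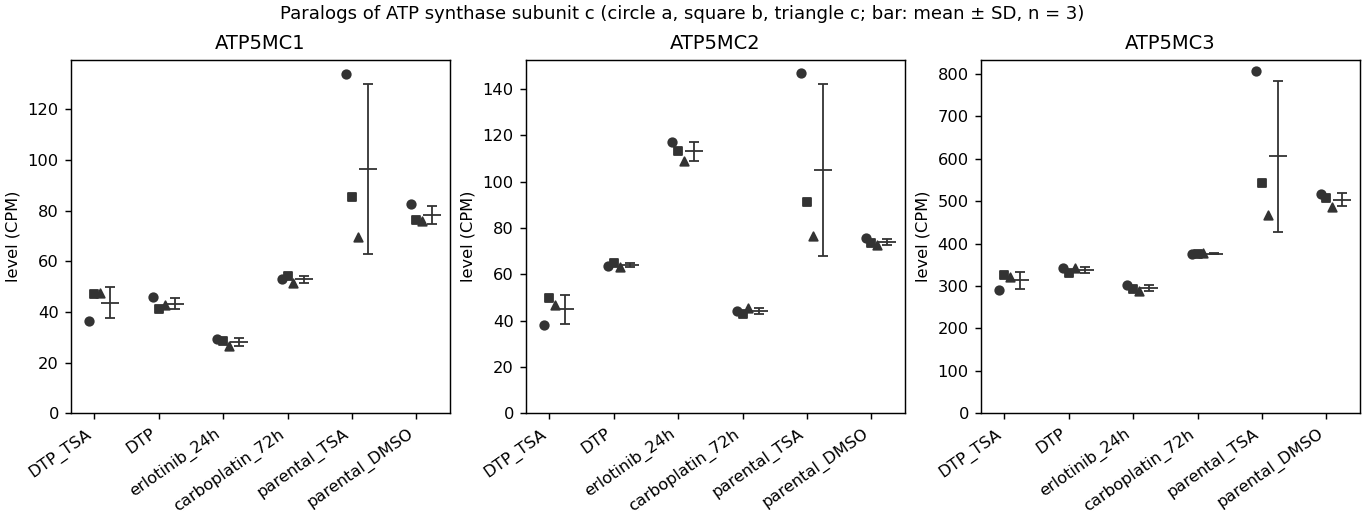
Level in CPM (y axis) of ATP5MC1, ATP5MC2 and ATP5MC3 in every library of the 6 groups (x axis); symbols are replicates and bars the mean ± SD of 3. In erlotinib_24h ATP5MC1 lies at 26.6 to 29.3 CPM, its lowest, while ATP5MC2 lies at 109 to 117 CPM.

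ATP5IF1, the inhibitor that blocks ATP hydrolysis by the synthase when the proton gradient fails, rose with carboplatin and, in parental cells, with TSA. It was at 39.0, 37.9 and 42.1 CPM in carboplatin_72h and 60.3, 40.5 and 34.8 CPM in parental_TSA, against 20.01, 19.4 and 20.7 CPM in parental_DMSO, with no overlap. The rises were 0.99 ± 0.14 (adjusted p = 9.06e-06) and 1.17 ± 0.14 (adjusted p = 1.41e-06; 0.91 without both replicates a), and 1.63 and 1.11 with spike-ins. In DTP_TSA it was at 25.1, 26.2 and 27.2 CPM, against 22.3, 20.8 and 21.7 CPM in DTP, a change of 0.28 that did not pass (adjusted p = 0.0908) but did without both replicates a (0.30, adjusted p = 0.000427). In erlotinib_24h and DTP it differed from parental_DMSO by 0.04 and 0.11 (adjusted p = 0.807 and 0.517), but with spike-in library sizes it fell at 24 hours, by 0.32 (adjusted p = 0.0201).

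After TSA the members as a group differed between backgrounds. In parental_TSA 54 rose and 2 fell, where 30.8% of all genes rose and 27.4% fell (58.2% in either direction), with medians of 0.42 for the members and 0.06 for all genes. Complex IV had 11 of 12 genes higher, and 10 without both replicates a. The summed level was 13760, 10030 and 8834 CPM in parental_TSA, against 8857, 8705 and 8489 CPM in parental_DMSO, so that replicate c lay within the parental range. Without parental_TSA a, 33 rose and 2 fell, with a median of 0.16, and without both replicates a 45 rose and 5 fell, with a median of 0.17, against 0.05 for all genes, of which 36.4% rose and 32.9% fell. The direction of the median thus held without replicate a, at a smaller size. The count of 2 lower was 1 without parental_DMSO a, parental_TSA b or parental_TSA c and 0 without parental_DMSO b.

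In DTP_TSA against DTP 5 members rose and 13 fell, where 25.6% of all genes rose and 30.7% fell (56.2% in either direction), with medians of -0.11 and -0.08. The sum was 6133, 6604 and 6460 CPM in DTP_TSA, against 6920, 6698 and 6859 CPM in DTP. Without both replicates a 11 rose and 33 fell, with a median of -0.10, where 32.9% of all genes rose and 37.4% fell. Without DTP_TSA a alone 8 fell, without parental_TSA a 9 rose and 32 fell, without parental_TSA c 8 rose and 21 fell, and without DTP b or DTP_TSA b 3 rose; on the spike-in scale 9 rose and 1 fell, with a median of 0.05, where 24.6% of all genes rose and 14.3% fell.

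The difference between both TSA effects was tested directly. It was lower in DTP for 49 members and higher for 2, where 23% of all genes were lower and 15.3% higher (38.3% in either direction), with medians of -0.58 and -0.11. Without both replicates a it was lower for 54 and higher for 5 (median -0.31, all genes -0.09), where 30.5% of all genes were lower and 21.2% higher. With spike-in library sizes it was lower for 14 and higher for 1 (-0.36, all genes 0.05), where 9.02% of all genes were lower and 6% higher. The count of 2 higher was 4 without DTP_TSA a or parental_TSA a, and 1 without parental_DMSO a, parental_DMSO b, DTP b, DTP c, DTP_TSA b or parental_TSA b. COX8A, a small hydrophobic subunit of complex IV, was at 55.7, 62.2 and 65.0 CPM in DTP_TSA, against 74.2, 76.7 and 77.4 CPM in DTP, and at 261, 148 and 130 CPM in parental_TSA, against 93.5, 84.8 and 97.4 CPM in parental_DMSO. The difference of its effects was -1.28 ± 0.26 (adjusted p = 0.00088), and -0.86 without both replicates a (adjusted p = 1.77e-05). NDUFB4, a membrane-arm subunit of complex I, was at 40.0, 46.6 and 43.6 CPM in DTP_TSA, against 62.7, 60.1 and 65.8 CPM in DTP, and at 127, 79.8 and 67.6 CPM in parental_TSA, against 59.7, 57.2 and 61.6 CPM in parental_DMSO. It fell by 0.53 ± 0.15 in DTP_TSA (adjusted p = 0.00623) and rose by 0.62 ± 0.15 in parental_TSA (adjusted p = 0.00203). These changes of NDUFB4 were -0.49 and 0.31 without both replicates a. Its difference was -1.15 ± 0.21 (adjusted p = 0.000472), and -0.80 without both replicates a (adjusted p = 3.91e-07). ATP5MC2 also fell with TSA in DTP and rose in parental cells, by 0.51 ± 0.16 and 0.50 ± 0.16 (adjusted p = 0.0129 for each), though the fall missed the threshold without DTP_TSA a (adjusted p = 0.0537) and the rise without parental_TSA a (0.18, adjusted p = 0.0887). Without both replicates a the changes of ATP5MC2 were -0.41 and 0.18 and both passed (adjusted p = 5.26e-06 and 0.00791).

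**Figure D4:**
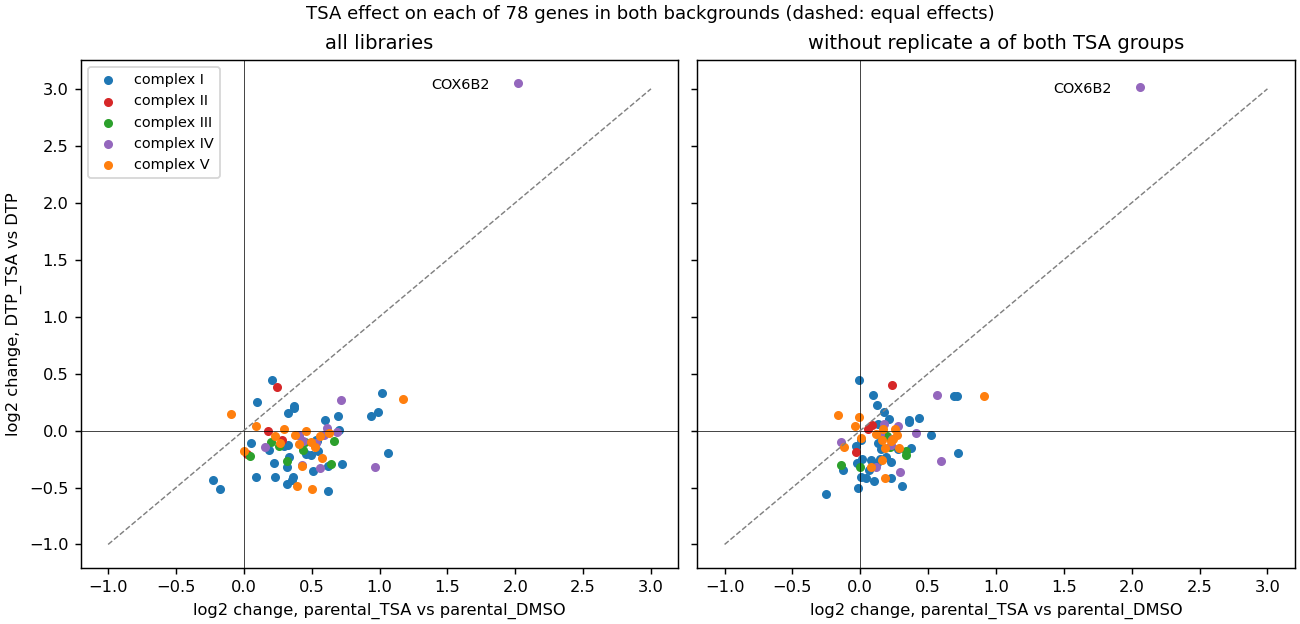
Log2 change with TSA in DTP (y axis) against that in parental cells (x axis) for each of the 78 genes, with all libraries (left) and without replicate a of both TSA groups (right); the dashed line marks equal effects. Most genes lie below the line, with medians of -0.11 in DTP and 0.42 in parental cells on the left and -0.10 and 0.17 on the right, and COX6B2 lies far from all others, at 3.05 and 2.02 on the left.

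The 13 subunits encoded by the mitochondrial genome did not follow the nuclear ones. Their summed level was 32910, 34440 and 33440 CPM in DTP and 55040, 52030 and 49780 CPM in erlotinib_24h, against 41240, 37780 and 41200 CPM in parental_DMSO. The nuclear sum was low in both erlotinib groups, while the mitochondrial one was high at 24 hours and low in DTP. In DTP 0 of 13 rose and 4 fell (median -0.24), and the share lower was near the 27.8% of all genes. At 24 hours 6 rose and 0 fell (median 0.35), where 36.6% of all genes rose and 32.7% fell. DTP against erlotinib_24h gave 0 higher and 12 lower (median -0.62), where 30.5% of all genes were higher and 24.8% lower. The rise at 24 hours depends on the scale: with spike-in library sizes 2 rose and 1 fell (median -0.01), and 3 were lower and 0 higher in DTP than at 24 hours (-0.17). MT-CO1, a catalytic subunit of complex IV, was at 8024, 8229 and 8053 CPM in DTP and 13990, 13190 and 13020 CPM in erlotinib_24h, against 9105, 8829 and 9053 CPM in parental_DMSO, a rise of 0.58 ± 0.11 at 24 hours (adjusted p = 0.00014). After carboplatin 3 rose and 1 fell (median 0.08), where 30.3% of all genes rose and 28.6% fell. With TSA and all libraries 4 fell and 0 rose in each background, with medians of -0.35 in DTP_TSA and -0.03 in parental_TSA. The share lower was then near that of all genes (30.7% and 27.4%). Without both replicates a 8 fell in DTP_TSA (median -0.16), where 37.4% of all genes fell. In parental_TSA 12 fell (-0.32), where 32.9% of all genes fell, with 0 higher in either background. The share lower was thus above that of all genes in both backgrounds once replicates a were left out. PolyA selection catches mitochondrial transcripts by short tails, so levels of different genes are not set against each other. The sum pools the 13 genes and weighs most those with the highest levels. These include MT-CO1 and MT-ND4, at means of 13400 and 10720 CPM in erlotinib_24h.

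**Figure D5:**
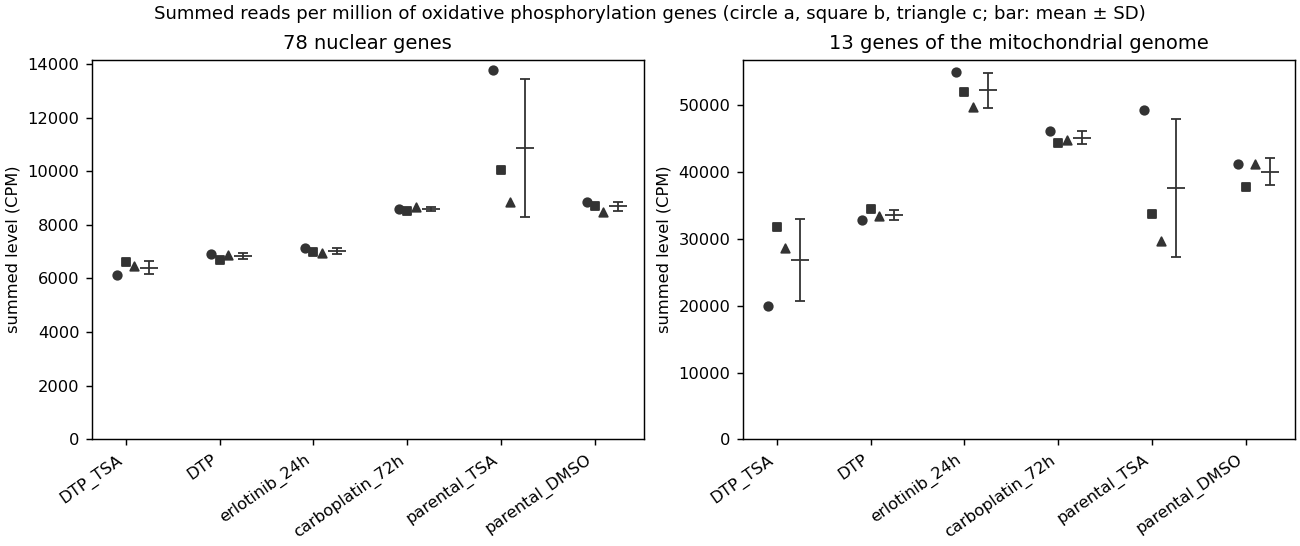
Summed CPM (y axes, from 0) of the 78 nuclear genes (left) and of the 13 subunit genes of the mitochondrial genome (right) in each library of the 6 groups (x axis); symbols are replicates and bars the mean ± SD of 3. The nuclear sum is 6826 ± 115 CPM in DTP and 7017 ± 102 CPM in erlotinib_24h, while the mitochondrial sum is 33600 ± 777 CPM in DTP and 52280 ± 2639 CPM in erlotinib_24h.

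Genes that serve the same machinery were largely lower under erlotinib as well. The counts below stand beside 31% of all genes higher and 27.8% lower in DTP, and 36.6% higher and 32.7% lower at 24 hours. Of 4 respiratory chain genes that the name rule misses, 3 fell in DTP and 3 at 24 hours, with 0 higher in either. COXFA4, given further below, is not counted among them. CYCS, cytochrome c itself, was at 341, 325 and 342 CPM in DTP and 120, 116 and 119 CPM in erlotinib_24h, against 754, 756 and 702 CPM in parental_DMSO, a fall of 1.13 ± 0.09 in DTP (adjusted p = 1.36e-08) and of 2.64 ± 0.10 at 24 hours (adjusted p = 1.9e-13). Of 46 assembly factors 0 rose and 28 fell in DTP (median -0.40) and 6 rose and 32 fell at 24 hours (-0.60). Of 77 mitochondrial ribosomal proteins, which translate the mitochondrial subunits, 1 rose and 67 fell in DTP (-0.66) and 0 rose and 63 fell at 24 hours (-0.79). Of 18 genes of the citric acid cycle and pyruvate dehydrogenase 0 rose and 16 fell in DTP, and 4 rose and 13 fell at 24 hours. With spike-in library sizes the medians in DTP were -0.31 for assembly factors, -0.57 for mitochondrial ribosomal proteins and -0.40 for the citric acid cycle list. These lists were not lower under erlotinib alone. After carboplatin, relative to total gene RNA, 6 mitochondrial ribosomal proteins rose and 36 fell. For assembly factors these counts were 9 and 18, and for the citric acid cycle list 4 and 10. There 30.3% of all genes rose and 28.6% fell.

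Of 16 regulators of mitochondrial biogenesis 1 rose and 11 fell in DTP, and 2 rose and 12 fell at 24 hours. TFAM, which packages mitochondrial DNA and helps to start its transcription, was at 124, 120 and 123 CPM in DTP and 91.4, 86.8 and 91.8 CPM in erlotinib_24h, against 274, 285 and 268 CPM in parental_DMSO, a fall of 1.18 ± 0.06 in DTP (adjusted p = 8.5e-11). After carboplatin 9 of these 16 fell and 2 rose (median -0.52), but with spike-in library sizes 4 fell and 4 rose (0.11). Other lists were mixed, with several shares near those of all genes. Of 16 fatty acid oxidation genes 7 rose and 4 fell in DTP and 9 rose and 5 fell at 24 hours, where 4 rose and 5 fell with spike-in library sizes. Of 11 genes for pyruvate dehydrogenase kinases and for lactate and pyruvate transport 3 rose and 7 fell in DTP and 4 rose and 5 fell at 24 hours, and of 11 carriers and uncoupling proteins 4 rose and 5 fell in DTP and 4 rose and 6 fell at 24 hours. UCP2, an uncoupling protein of that list, rose by 3.75 ± 0.17 at 24 hours (adjusted p = 3.1e-12) and by 0.68 ± 0.16 in DTP (adjusted p = 0.00154).

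Across the 6 group means, each member's log2 level correlated with the members' mean by 0.16 to 0.99 (Pearson, median 0.85), and positively for all 78, as a description over 6 points. Each member is itself part of that mean. The mean deviated most in parental_TSA (0.475, log2), where replicate a was included. Neither these correlations nor those below were repeated without replicate a. Outside the 78, the named genes nearest to that mean were LEAP2 (0.991), COPS9 (0.991), KGD4 (0.987) and CHCHD1 (0.986). COXFA4, listed until recently as NDUFA4 and so outside the name rule, was at 108, 98.3 and 102 CPM in DTP and 97.9, 93.0 and 92.1 CPM in erlotinib_24h, against 130, 129 and 120 CPM in parental_DMSO. Like many members it fell at 24 hours, by 0.42 ± 0.14 (adjusted p = 0.0139), and in DTP it was 0.30 lower and did not pass (adjusted p = 0.0808).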

How the data were processed

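RNA of 18 PC9 libraries in 6 groups was sequenced. Per the labels' protocols, ERCC spike-in RNA went into DNase-treated RNA in proportion to cell number before polyA selection. The deposited gene table holds estimated counts per gene, also called expected counts, made with Salmon per the submitters' processing notes. Its version, build and annotation were not given in the sources used here. Of its columns, 3 match none of the samples and were left aside. Symbols came from RefSeq (GRCh38.p14) for 27814 of 30727 identifiers; entries without one took 0.247% of reads. Estimated counts were rounded. Genes passing the expression filter of edgeR 4.0.16 (17641; R 4.3.3, limma 3.58.1) entered 1 quasi-likelihood fit of all libraries, with TMM factors, a term for each group and 12 residual degrees of freedom; the common biological variation (coefficient) was 0.136. Calls used p adjusted by Benjamini and Hochberg within each of 7 contrasts, threshold 0.05. The SE is the log2 change divided by the root of F. Levels are CPM with TMM-scaled library sizes. The method was tested on simulated data.

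The members and lists were chosen with earlier results of these data known. Members were named by a rule: per contrast and complex, the 2 highest and 2 lowest called, with complex II, the inhibitor and paralogs always; members named in any contrast may be given in others. From other lists, genes among the smallest p were named, and for pattern the 5 nearest genes, of which 1 without a symbol is left out. Alternatives were DESeq2 1.42.0, its size factors, other count filters, the replicate letter as block, groups alone, spike-in library sizes and left-out libraries. Depth is the range of gene reads. Figures used matplotlib 3.10.9 in Python 3.11.15.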

Additional observations from a re-analysis of the deposited data

Results flagged for a closer look

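The following results stood out because the effect of TSA in DTP (DTP_TSA against DTP) differed from that in parental cells (parental_TSA against parental_DMSO) in a direct test of that difference, given as log2, effect in DTP minus effect in parental cells. Among the 78 genes 49 were lower and 2 higher, with a median of -0.58. The lower ones named by the rule were NDUFA3 (-1.26) and NDUFB4 (-1.15) of complex I, SDHC (-0.22) of complex II, UQCR10 (-0.94) and UQCRQ (-0.76) of complex III, and ATP5IF1 (-0.89) and ATP5MC2 (-1.01) of complex V. Complex IV had COX6A1 (-0.59), COX6B1 (-0.64), COX7A2L (-0.45), COX7B2 (-0.89) and COX8A (-1.28). The higher 2 were COX6B2 (1.03) and the catalytic ATP synthase subunit ATP5F1B (0.24). Parental_TSA a, whose median over these genes lay 0.46 above its group mean, enters every one of these values, and without replicate a of both TSA groups the median was -0.31, with 54 lower and 5 higher. On that setting the single values were -0.92 for NDUFA3, -0.80 for NDUFB4, -0.16 for SDHC, -0.55 for UQCR10, -0.52 for UQCRQ, -0.61 for ATP5IF1, -0.60 for ATP5MC2, -0.24 for COX6A1, -0.31 for COX6B1, -0.25 for COX7A2L, -0.66 for COX7B2, -0.86 for COX8A, 0.95 for COX6B2 and 0.30 for ATP5F1B. The call on ATP5F1B was lost without any 1 of DTP b, DTP c, DTP_TSA b, parental_DMSO a, parental_DMSO b and parental_TSA b (adjusted p of 0.0532 to 0.0704 in edgeR), and that on COX6A1 without any 1 of 15 of the 18 libraries. All 51 calls were made in the same direction without both replicates a, and 50 of them without parental_TSA a alone.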

How the results depend on the processing

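Counts below are members higher and lower of 78, with the median log2 change. With spike-in library sizes and DTP_TSA a left out they were 2 and 23 (-0.20) in DTP, 0 and 60 (-0.59) at 24 hours, 70 and 0 (0.65) after carboplatin, 49 and 0 (0.35) in parental_TSA, 9 and 1 (0.053) in DTP_TSA against DTP, 51 and 1 (0.40) in DTP against erlotinib_24h, and 1 and 14 (-0.36) for the difference of the TSA effects. On that scale 27.4% of all genes rose and 19.5% fell in parental_TSA. With spike-ins and all libraries the numbers of members called were 0 and 0 in every contrast, with medians of -0.20, -0.59, 0.65, 0.35, -0.53, 0.40 and -0.94. Without replicate a of both TSA groups they were 3 and 59 (-0.29), 16 and 49, 24 and 23, 45 and 5 (0.17), 11 and 33, 18 and 29, and 5 and 54 (-0.31). There 38.8% of all genes rose and 35.1% fell after carboplatin, and 38.1% rose and 33.4% fell in DTP against erlotinib_24h. With only the groups of a contrast fitted the members gave 6 and 60 in DTP, 17 and 52 (-0.27) at 24 hours, 26 higher after carboplatin, 25 and 0 in parental_TSA, 13 and 20 (-0.032) in DTP_TSA, 19 and 40 (-0.086) in DTP against erlotinib_24h, and 1 and 32 for the difference. Of all genes, 13010 of 15951 were called in either direction in DTP, 14067 of 16188 at 24 hours and 12416 of 15967 after carboplatin. Calls numbered 8949 of 15792 genes in parental_TSA and 9154 of 16467 in DTP_TSA. They numbered 13274 of 16437 in DTP against erlotinib_24h and 5387 of 17024 for the difference. In DTP, at 24 hours and after carboplatin these fits thus called more of all genes than the main fit. Without a count filter 3 were higher at 24 hours (median -0.27), the carboplatin median was -0.039, 1 was lower in parental_TSA and 1 higher in the difference. With a filter of 1 CPM the 24-hour median was -0.15, 1 was lower in parental_TSA, DTP_TSA gave 10 and 6 (-0.005), and the median of DTP against erlotinib_24h was -0.11. DESeq2 and its size factors gave -0.091 for that median, and the size factors 8 lower in DTP_TSA.

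Leaving out 1 library gave 0 to 3 higher, 30 to 55 lower and medians of -0.32 to -0.27 in DTP; 2 to 12, 31 to 47 and -0.26 to -0.22 at 24 hours; 5 to 21, 12 to 21 and -0.02 to 0.02 after carboplatin; 33 to 69, 0 to 2 and 0.16 to 0.58 in parental_TSA; 3 to 9, 8 to 32 and -0.17 to -0.10 in DTP_TSA; 7 to 16, 11 to 24 and -0.06 to -0.04 in DTP against erlotinib_24h; and 1 to 4, 41 to 64 and -0.75 to -0.30 for the difference.

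Replicate letters do not pair the samples: deviations of same-letter libraries correlated by -0.05 to 0.08. With the letter as a block the counts were 0 and 38, 4 and 33, 12 and 16, 52 and 2, 5 and 14, 7 and 13, and 2 and 49.

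Among the changes named by the rule that passed the threshold on at least 1 of both scales, directions turned with spike-in library sizes alone; changes that passed on neither are not listed. At 24 hours this held for UQCRB (-0.073), UQCRC1 (-0.15) and ATP5IF1 (-0.32). After carboplatin it held for NDUFA9 (0.17), NDUFS6 (0.015), SDHB (0.62), SDHC (0.51), SDHD (0.22), COX7A2L (0.65), COX7B (0.56), COX7B2 (0.14), ATP5MC1 (0.09) and ATP5MC3 (0.23). In DTP against erlotinib_24h it held for SDHA (0.094), SDHC (0.25), SDHD (0.37), UQCRB (0.059), UQCRC1 (0.062), COX6B1 (0.35), COX7A2 (0.44), COX7A2L (0.15) and COX8A (0.43). With DTP_TSA a kept, it held in DTP_TSA for NDUFA5 (-0.12), SDHA (-0.029), COX7A2L (-0.12) and ATP5F1B (-0.29), and for the difference in ATP5F1B (-0.18). The cause was not tested beyond the change of scale. COX6B2, the least counted subunit gene among the members, still had 8454.7 reads in all.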
